A study of Homo sapiens with 14 samples.

Results

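Transcripts of the pre-B cell receptor and of the signaling proteins closest to it were followed in RS4;11 cells, a human B-cell precursor acute lymphoblastic leukemia line with a rearranged KMT2A gene. The set held 10 genes of the 11963 that had at least 1 probe set annotated with a single gene: VPREB1, VPREB3, IGLL1, CD79A, CD79B, BLNK, SYK, BLK, BTK and LYN. These 10 genes were read by 14 of the 19070 single-gene probe sets. All cells had first been kept 48 h without hormone. Dexamethasone, a synthetic glucocorticoid that activates the glucocorticoid receptor, was then given at 10 nM for 0 h (untreated, 4 arrays), 8 h (5 arrays) or 24 h (5 arrays), and the comparisons ask how the transcripts of these genes stood at each time.

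Several features of the design limit what the values stand for. A single cell line was used, and the labels do not say that replicate arrays came from separate cultures, so the p-values measure only the spread between these arrays. Untreated cells were sampled at the start only, so that dexamethasone and time in culture cannot be told apart. The paper names Agilent arrays, while the labels name Affymetrix reagents and the probe sets bear Affymetrix names. By the tags in the labels there were 5 runs, spread over 4 days. Day 1 had runs 1 and 2, runs 1 to 4 each held 1 array of every group, and run 5 held an 8 h and a 24 h array only. In a bulk sample, less RNA per cell and fewer cells that hold the transcript cannot be told apart.

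The pre-B cell receptor appears on B-cell precursors once an immunoglobulin heavy chain has been made and before a light chain is available. The products of VPREB1 and IGLL1 (lambda 5) together form the surrogate light chain that pairs with the heavy chain, and VPREB3 encodes a related protein that binds heavy chains inside the cell. CD79A and CD79B encode the receptor's signaling chains. The Src-family kinases LYN and BLK phosphorylate these chains, SYK binds the phosphorylated tails, and the adaptor BLNK brings BTK and phospholipase C to the active complex. In normal development these signals drive a burst of pre-B cell division and then help to end it, and some B-cell precursor leukemias depend on them.

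Promoter windows are shown for the 2 surrogate light chain genes and their relative VPREB3, which lie on the same chromosome and differed in direction, and for BLNK, the member with the widest change. Each runs from 250 bases before to 50 bases after the start site in RefSeq's annotation of GRCh38.p14. Such windows were searched for 7 of the 10 members (10 windows). The search skipped the chromosome that carries BLK and LYN, and no window of CD79B was searched either. The coordinates are chr22:22244536-22244835 on the plus strand for VPREB1, chr22:23580241-23580540 on the minus strand for IGLL1, chr22:23754376-23754675 on the minus strand for VPREB3 and chr10:96271520-96271819 on the minus strand for BLNK. Capitals mark letters that matched an E-box (CAGNTG), the EBF1 core (CCCNNGGG) or an ETS core (GGAAGT), each searched on both strands.
VPREB1: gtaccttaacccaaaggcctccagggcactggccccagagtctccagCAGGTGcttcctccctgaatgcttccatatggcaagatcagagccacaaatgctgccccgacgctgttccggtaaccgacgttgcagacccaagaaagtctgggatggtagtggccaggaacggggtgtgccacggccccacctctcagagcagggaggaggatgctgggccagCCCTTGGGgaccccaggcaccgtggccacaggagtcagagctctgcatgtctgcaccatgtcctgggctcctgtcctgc
IGLL1: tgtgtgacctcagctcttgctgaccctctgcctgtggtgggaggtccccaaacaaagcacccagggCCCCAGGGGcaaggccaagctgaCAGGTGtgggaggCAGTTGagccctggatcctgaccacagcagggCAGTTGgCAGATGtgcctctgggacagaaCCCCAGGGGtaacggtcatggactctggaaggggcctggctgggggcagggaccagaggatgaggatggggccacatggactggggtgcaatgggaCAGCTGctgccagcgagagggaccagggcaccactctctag
VPREB3: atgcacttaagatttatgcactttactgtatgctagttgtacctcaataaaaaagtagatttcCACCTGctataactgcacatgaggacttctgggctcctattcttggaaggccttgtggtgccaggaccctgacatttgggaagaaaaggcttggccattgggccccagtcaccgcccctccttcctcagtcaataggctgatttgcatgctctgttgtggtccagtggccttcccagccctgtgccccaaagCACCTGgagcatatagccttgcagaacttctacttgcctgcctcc
BLNK: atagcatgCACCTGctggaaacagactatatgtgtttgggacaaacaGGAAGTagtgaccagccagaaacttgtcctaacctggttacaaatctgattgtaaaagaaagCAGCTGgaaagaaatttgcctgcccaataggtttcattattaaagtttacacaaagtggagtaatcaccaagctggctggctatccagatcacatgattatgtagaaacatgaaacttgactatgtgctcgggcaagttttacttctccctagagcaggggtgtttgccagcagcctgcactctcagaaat

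The IGLL1 window held 5 E-box matches and 4 EBF1 matches, the EBF1 matches lying as overlapping pairs in the same palindromic letters at 2 places. The VPREB1 window held 1 match of each, the VPREB3 window 2 E-boxes, and the BLNK window 2 E-boxes and 1 ETS core. Over all 35116 promoter windows in the table, 49.9% held an E-box, 19.1% the EBF1 core and 22.8% the ETS core. The core letters of a glucocorticoid response element (ACANNNTGT, either strand) stood in 5.37% of all windows and in none of the 10 member windows searched. These 10 do not cover CD79B, BLK and LYN. A match of letters is a description and not a binding site.

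The values are log2 expression values as the authors deposited them, and a log2 difference of 1 is a doubling. The untreated arrays had medians of 6.03 to 6.05, the 8 h arrays of 6.03 to 6.09 and the 24 h arrays of 6.07 to 6.11. Genes were tested with limma over all 14 arrays, with Benjamini-Hochberg adjustment over the 6763 genes whose probe sets varied enough to pass a variance filter, and a gene was called at an adjusted p below 0.05. The filter kept 9 of the 10 members, and VPREB1, whose values spread little, was tested in the same model over all 11963 genes. A filter on variance favors genes that differ between groups, so the counts of called members describe the genes kept and are no support for a change in the set as such. Levels of different probe sets are not comparable, and no ranking of levels between genes is given. The marker sums and the comparisons of single genes with array medians below carry this limit and are rough descriptions.

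After 24 h, transcripts of VPREB3, CD79B, BLK, CD79A and SYK were higher than in untreated cells, and those of BLNK, IGLL1 and BTK were lower. VPREB1, tested without the filter, was also called higher at 24 h (0.15, limma adjusted p = 0.0273), a small change whose call depended on single arrays. VPREB3 and BLK had already risen at 8 h, and BLNK, BTK and, by a small margin, LYN had fallen. At 8 h against untreated cells, 2 of the 9 members kept by the filter were called higher and 3 lower, where 15.9% of all genes tested were called higher and 18.6% lower. At 24 h against untreated cells the members' counts were 5 higher and 3 lower, against 30.7% and 32.8% of all genes. At 24 h against 8 h they were 6 higher and 1 lower, against 24.3% and 23.6%. In each comparison the members were thus called in a background in which a large share of all genes moved. The median log2 change of the 9 members was -0.10 at 8 h and 0.30 at 24 h against untreated cells and 0.40 at 24 h against 8 h, where the medians of all genes tested were -0.03, -0.04 and 0.01. Over all 10 members without the filter, the medians were -0.14, 0.21 and 0.31. Both comparisons with untreated cells use the same 4 untreated arrays.

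**Figure D1:**
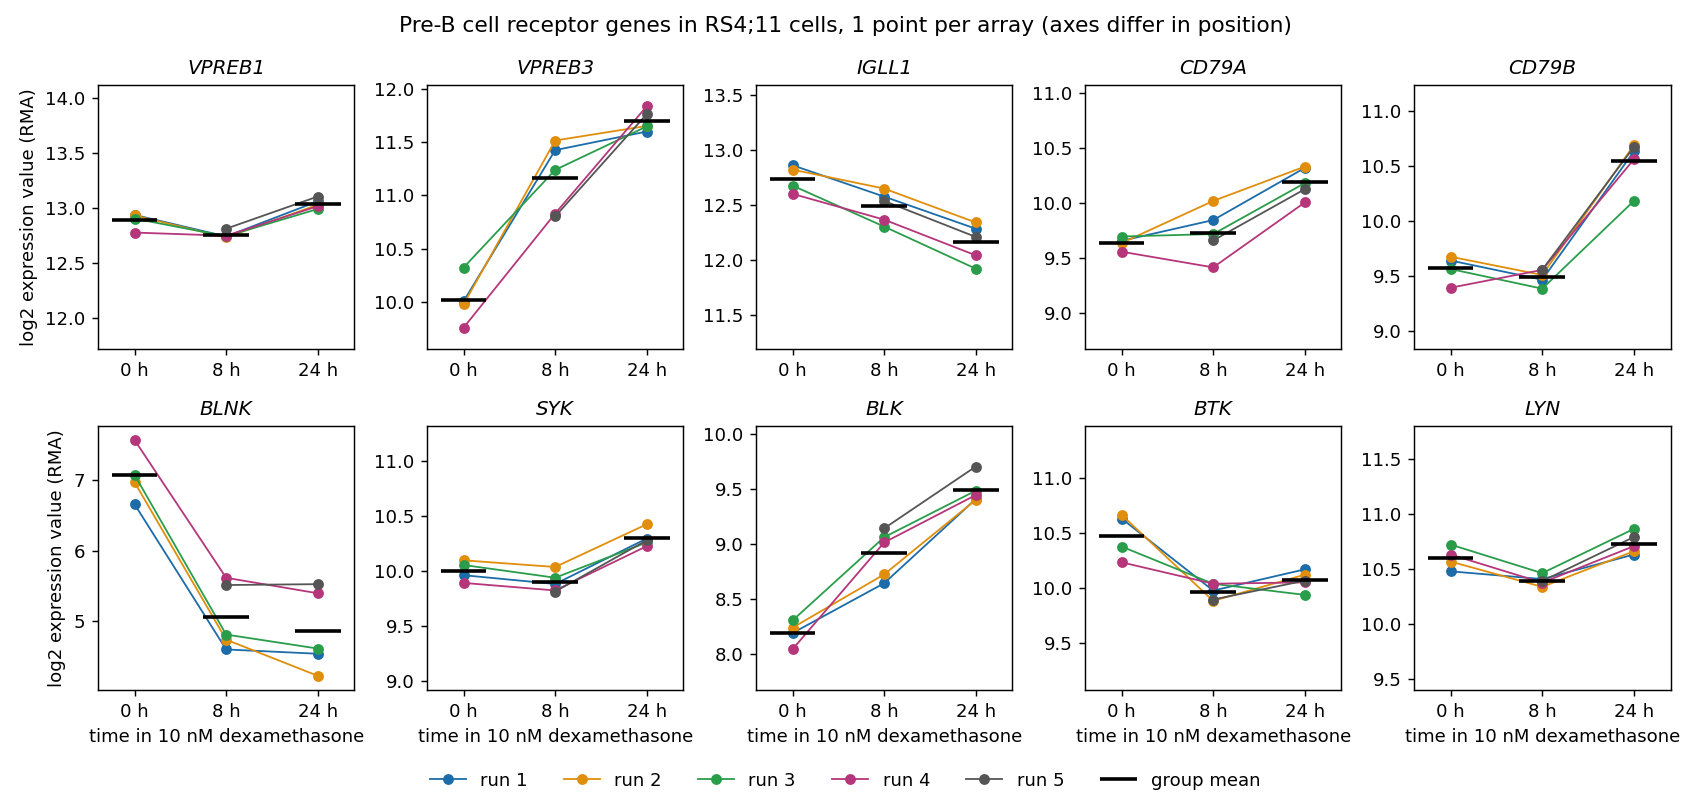
Log2 expression value of each member on each array (y axis, log2 units, each panel placed at its own level) against time in dexamethasone (x axis), with points of the same run joined and black bars for group means. BLNK lay between 6.66 and 7.57 on the untreated arrays and at most at 5.62 on the treated ones, and VPREB3 and BLK climbed at both times.

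Among all genes tested, 28.7% had arrays that did not overlap between 8 h and untreated cells, 54.7% between 24 h and untreated cells, and 36.1% between 24 h and 8 h. The members kept by the filter did so in 5, 8 and 5 of 9 cases for the same comparisons in that order. Without the variance filter, 19.7%, 40.5% and 28.3% of the 11963 genes were called in either direction.

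VPREB3, the relative of VPREB1, rose at both times. It stood at 10.00, 9.98, 10.32 and 9.76 on the untreated arrays of runs 1 to 4, at 11.42, 11.52, 11.24, 10.83 and 10.80 on the 8 h arrays of runs 1 to 5, and at 11.60, 11.65, 11.65, 11.84 and 11.76 on the 24 h arrays of the same runs. No array overlapped between any pair of groups, although the 8 h arrays of runs 4 and 5 were lower than the other three. The log2 change was 1.15 ± 0.15 (SE) at 8 h (limma adjusted p = 1.85e-05) and 1.69 ± 0.15 at 24 h (limma adjusted p = 5.67e-08), a 3.22-fold higher level at 24 h. The further rise between 8 h and 24 h was 0.54 ± 0.14 (limma adjusted p = 0.00445) and differed among runs. It was 0.18 and 0.14 in runs 1 and 2 but 0.41, 1.01 and 0.96 in runs 3, 4 and 5. Within day 1 alone it was not called (0.16, limma adjusted p = 0.129), and within days 2 to 4 it was (0.79, limma adjusted p = 0.00257).

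IGLL1 went the other way. Its values were 12.86, 12.82, 12.67 and 12.60 on the untreated arrays of runs 1 to 4, 12.57, 12.65, 12.30, 12.36 and 12.53 on the 8 h arrays of runs 1 to 5, and 12.28, 12.34, 11.92, 12.04 and 12.21 on the 24 h arrays. The 24 h arrays were all below the untreated ones, the 8 h arrays overlapped both groups, and within every run the 24 h value was below the 8 h value. The log2 change at 24 h was -0.58 ± 0.10 (limma adjusted p = 0.000109). At 8 h it was -0.25 ± 0.10 and missed the threshold (limma adjusted p = 0.0651), yet in a fit that blocked on the run it passed at -0.27 (limma adjusted p = 0.00207), and it was lower in 4 of 4 runs. It also passed without the 8 h array of run 2 (-0.29, limma adjusted p = 0.0403). IGLL3P, a relative of IGLL1 annotated as a pseudogene, had a log2 change of -0.47 at 24 h (limma adjusted p = 0.000507). Whether either probe set also reads the other gene's transcript was not tested.

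VPREB1 moved little. The untreated arrays of runs 1 to 4 gave 12.93, 12.93, 12.90 and 12.77, the 8 h arrays of runs 1 to 5 gave 12.74, 12.73, 12.74, 12.74 and 12.81, and the 24 h arrays gave 13.06, 13.03, 12.99, 13.01 and 13.10. The 24 h arrays were above all others, and the 8 h arrays overlapped the untreated ones only through the untreated array of run 4. In the fit over all genes the log2 change was -0.13 ± 0.05 at 8 h (limma adjusted p = 0.0946), 0.15 ± 0.05 at 24 h (limma adjusted p = 0.0273) and 0.28 ± 0.05 between 24 h and 8 h (limma adjusted p = 0.000334). With the run as a block, the 8 h difference passed at -0.15 (limma adjusted p = 0.0367). The 24 h call against untreated cells was lost without the 24 h array of run 1 (0.15, limma adjusted p = 0.0533), without that of run 5 (0.14, limma adjusted p = 0.0643) and without the untreated array of run 4 (0.12, limma adjusted p = 0.104). Leaving out that untreated array brought the 8 h difference past the threshold (-0.17, limma adjusted p = 0.0372).

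The signaling chains were higher at 24 h and differed from untreated cells at 8 h by less than the test could call. CD79B, the Ig-beta chain, was at 9.64, 9.67, 9.56 and 9.39 on the untreated arrays of runs 1 to 4, at 9.47, 9.51, 9.38, 9.55 and 9.56 on the 8 h arrays of runs 1 to 5, and at 10.63, 10.69, 10.18, 10.56 and 10.67 on the 24 h arrays. The untreated and 8 h arrays overlapped, and all 24 h arrays lay above both, with that of run 3 the lowest of them. The log2 change was -0.07 ± 0.10 at 8 h (limma adjusted p = 0.621) and 0.98 ± 0.10 at 24 h (limma adjusted p = 3.85e-07), and it was 1.05 ± 0.09 between 24 h and 8 h (limma adjusted p = 2.94e-07). This last difference was positive in 5 of 5 runs and ranged from 0.80 to 1.18.

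CD79A, the Ig-alpha chain, was at 9.66, 9.64, 9.70 and 9.56 on the untreated arrays of runs 1 to 4, at 9.84, 10.02, 9.72, 9.41 and 9.66 on the 8 h arrays of runs 1 to 5, and at 10.32, 10.33, 10.18, 10.00 and 10.13 on the 24 h arrays. The 8 h arrays spread from below to above the untreated range, and the 24 h arrays cleared the untreated ones. The log2 change was 0.56 ± 0.11 at 24 h (limma adjusted p = 0.000249). At 8 h it was 0.09 ± 0.11 (limma adjusted p = 0.540), with 0.29 in the arrays of day 1 (limma adjusted p = 0.0383) and -0.03 in those of days 2 to 4 (limma adjusted p = 0.848).

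**Figure D2:**
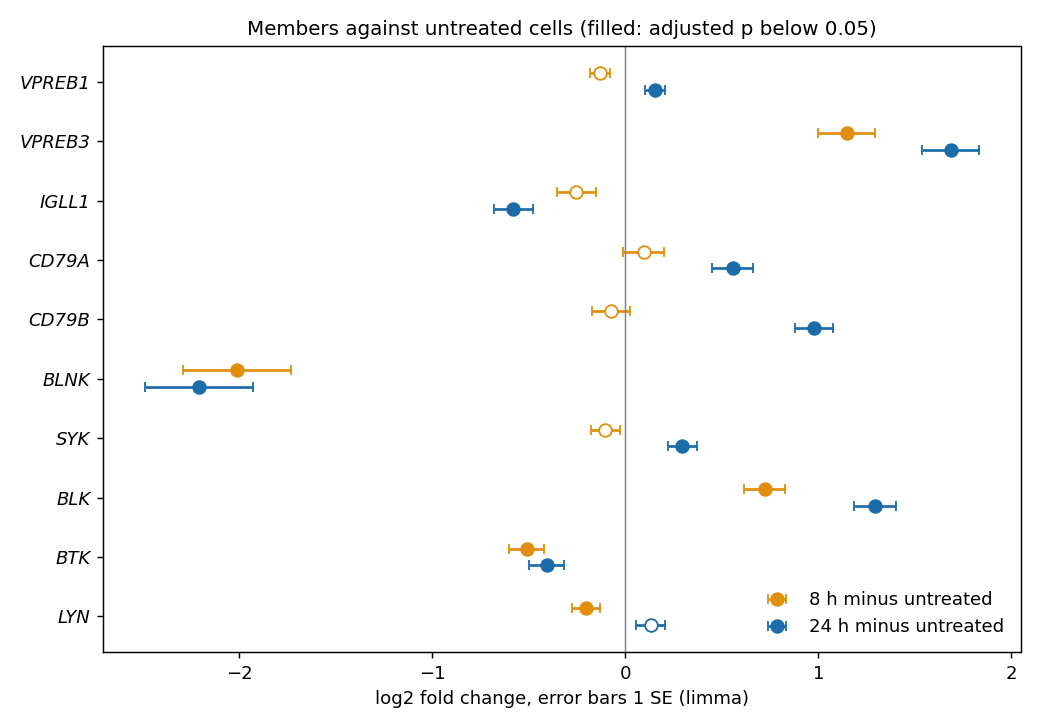
Log2 change of each member from untreated cells at 8 h (orange) and at 24 h (blue), on the x axis, with error bars of 1 SE from limma and filled points for an adjusted p below 0.05. CD79A and CD79B stood near 0 at 8 h and at 0.56 and 0.98 at 24 h, while BLNK stood at -2.01 and -2.21.

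BLNK, the adaptor that links SYK to BTK and phospholipase C, fell the most. Its values were 6.66, 6.97, 7.08 and 7.57 on the untreated arrays of runs 1 to 4, 4.60, 4.74, 4.81, 5.62 and 5.52 on the 8 h arrays of runs 1 to 5, and 4.54, 4.23, 4.62, 5.40 and 5.53 on the 24 h arrays. Every treated array was below every untreated array, and the treated arrays of runs 4 and 5 lay above those of runs 1 to 3. The level was 4.04-fold lower at 8 h (log2 change -2.01 ± 0.28, limma adjusted p = 4.15e-05) and 4.62-fold lower at 24 h (-2.21 ± 0.28, limma adjusted p = 4.05e-06). Within single runs the 8 h difference kept between -2.26 and -1.95. Between 24 h and 8 h the difference was -0.20 ± 0.26 (limma adjusted p = 0.592). All treated arrays read BLNK below their array's median.

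Of the kinases, BLK rose at both times. Its main probe set gave 8.19, 8.24, 8.31 and 8.04 on the untreated arrays of runs 1 to 4, 8.64, 8.73, 9.06, 9.02 and 9.14 on the 8 h arrays of runs 1 to 5, and 9.41, 9.40, 9.49, 9.45 and 9.71 on the 24 h arrays. The 3 groups did not overlap. The log2 change was 0.72 ± 0.11 at 8 h (limma adjusted p = 7.73e-05) and 1.29 ± 0.11 at 24 h (limma adjusted p = 3.16e-08), a 2.45-fold higher level at 24 h. The rise between 8 h and 24 h was 0.57 ± 0.10 (limma adjusted p = 0.000253) and was found in 5 of 5 runs. A second BLK probe set did not pass the variance filter. It averaged 4.62 in untreated cells, 4.77 at 8 h and 4.72 at 24 h, below the array medians, and its log2 changes were 0.15 at 8 h and 0.10 at 24 h, neither of them called. With both probe sets averaged and no filter, BLK's log2 change was 0.44 at 8 h (limma adjusted p = 0.000442) and 0.70 at 24 h (limma adjusted p = 9.95e-07). Within day 1, where the filter applied to those arrays kept both probe sets, the rise between 8 h and 24 h was 0.23 and not called (limma adjusted p = 0.0506).

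BTK, the Tec-family kinase that activates phospholipase C, was lower at both times. Its values were 10.63, 10.67, 10.38 and 10.24 on the untreated arrays of runs 1 to 4, 9.98, 9.88, 10.04, 10.04 and 9.90 on the 8 h arrays of runs 1 to 5, and 10.17, 10.12, 9.94, 10.05 and 10.07 on the 24 h arrays. All treated arrays were below all untreated ones, and the 8 h and 24 h arrays overlapped. The log2 change was -0.51 ± 0.09 at 8 h (limma adjusted p = 0.000414) and -0.41 ± 0.09 at 24 h (limma adjusted p = 0.000953). The 8 h difference was larger in the runs of day 1, at -0.65 and -0.78, than in runs 3 and 4, at -0.34 and -0.19. BTK lay near the edge of the variance filter, which removed it in 9 of 31 alternative settings, days 2 to 4 alone and 7 of the 14 that left out 1 array among them. Without the filter, a choice made after seeing the data, it was called in all 14 such fits, at -0.59 to -0.45 at 8 h (highest limma adjusted p = 0.00196) and at -0.49 to -0.34 at 24 h (highest limma adjusted p = 0.00458). Within days 2 to 4 it was then at -0.31 at 8 h (limma adjusted p = 0.0169).

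SYK and LYN both had their lowest mean at 8 h. SYK, the kinase that docks on the phosphorylated chains, ranged from 9.90 to 10.10 in untreated cells, from 9.82 to 10.04 at 8 h and from 10.23 to 10.43 at 24 h. Its log2 change was -0.10 ± 0.07 at 8 h (limma adjusted p = 0.319) and 0.30 ± 0.07 at 24 h (limma adjusted p = 0.00227), and the 24 h arrays cleared both other groups. LYN, a Src-family kinase with both activating and inhibitory roles in B cells, ranged from 10.48 to 10.72 in untreated cells, from 10.34 to 10.46 at 8 h and from 10.63 to 10.87 at 24 h. Its 24 h arrays overlapped the untreated ones (log2 change 0.13 ± 0.07, limma adjusted p = 0.130). With the day as a block this difference passed at 0.12 (limma adjusted p = 0.0453), with array weights it passed at 0.21 (limma adjusted p = 0.00907), and it was above 0 in 4 of 4 runs. The rise between 8 h and 24 h was called for both SYK (0.40 ± 0.07, limma adjusted p = 0.000231) and LYN (0.34 ± 0.07, limma adjusted p = 0.000813).

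LYN's call as lower at 8 h (-0.21 ± 0.07, limma adjusted p = 0.0385) lay near the threshold and, in the fit without a block, depended on single arrays. The call was lost on leaving out the 8 h array of run 1 (-0.21, limma adjusted p = 0.0505), run 2 (-0.19, limma adjusted p = 0.0683), run 5 (-0.20, limma adjusted p = 0.0631) or run 4 (-0.20, limma adjusted p = 0.0697). It was also lost on leaving out the untreated array of run 2 (-0.22, limma adjusted p = 0.0651), run 3 (-0.16, limma adjusted p = 0.129) or run 4 (-0.19, limma adjusted p = 0.0853). The direction was the same in 4 of 4 runs. With the day as a block the call was kept at -0.21 (limma adjusted p = 0.00448). It was also kept with the run or the title number as a block. Of the 30 alternative settings in which LYN was tested at 8 h, 19 kept the call. LYN's 3 probe sets gave log2 changes of -0.24, -0.19 and -0.18 at 8 h and of 0.13, 0.11 and 0.15 at 24 h. SYK's second probe set gave -0.19 at 8 h and 0.24 at 24 h, and neither was called.

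**Figure D3:**
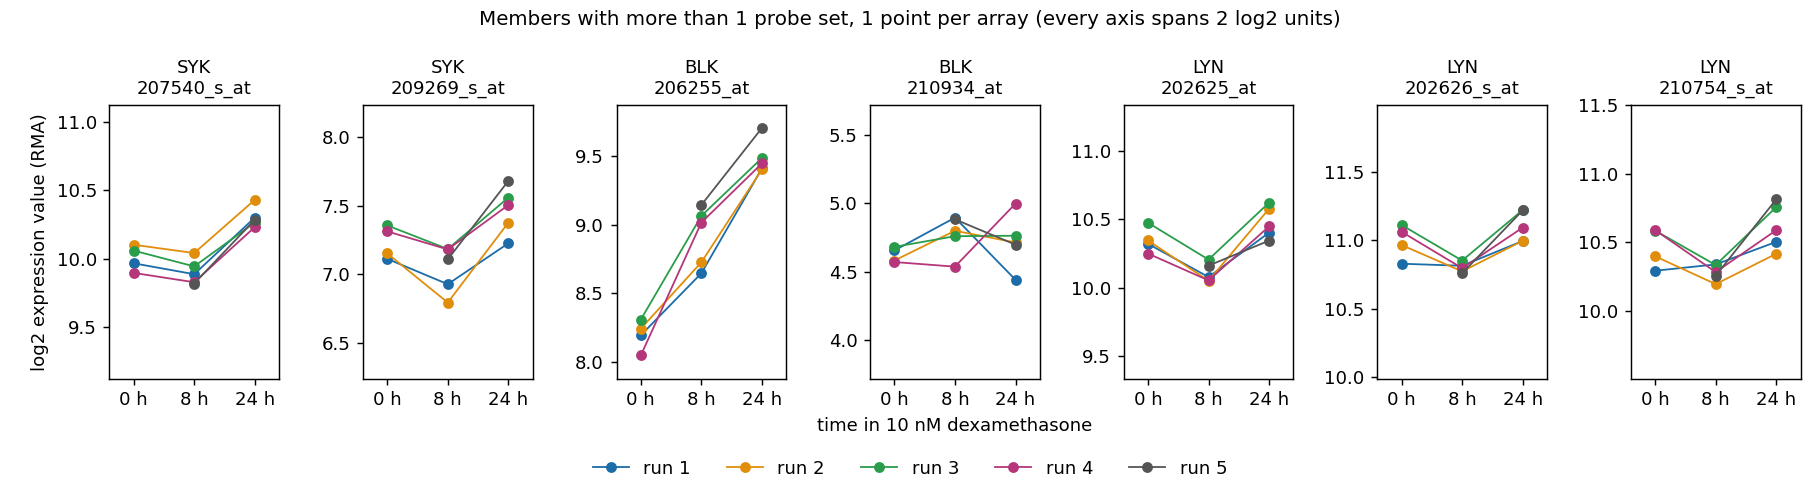
Log2 expression value (y axis, each panel spanning 2 log2 units) of every probe set of SYK, BLK and LYN on each array against time in dexamethasone (x axis), points of the same run joined. The group means of all 5 probe sets of SYK and of LYN were lowest at 8 h. At that time only 1 of these 5, a probe set of LYN, was called against untreated cells. Of BLK's probe sets only the first climbed and the second stayed between 4.4 and 5.0.

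The genes around the receptor were read from lists of common pathway knowledge. Of 37 genes that act downstream of the receptor, 28 were measured and 20 passed the filter. At 24 h 13 of the 20 were called higher and 4 lower (median log2 change 0.37), and at 8 h 7 were higher and 4 lower (median 0.16). Over all 28 measured genes without the filter the median was 0.17 at 24 h and -0.02 at 8 h, so its sign at 8 h depended on the filter. These and the following counts stand beside shares of all genes tested of 30.7% higher and 32.8% lower at 24 h, and 15.9% higher and 18.6% lower at 8 h, and no list was tested against them. STIM1, the calcium sensor of the endoplasmic reticulum, was at 1.14 ± 0.07 at 24 h (limma adjusted p = 1.28e-09), and MAP2K1, the kinase above ERK, was at 0.94 ± 0.08 (limma adjusted p = 3.38e-08). BANK1, a scaffold of B cells, fell by 2.10 ± 0.16 on the log2 scale (limma adjusted p = 1.49e-08). Its mean went from 6.55 in untreated cells to 4.45 at 24 h, below the array medians. RASGRP1, a Ras activator, fell by 1.02 ± 0.09 (limma adjusted p = 3.43e-08).

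Of 16 inhibitors of receptor signaling kept by the filter, 10 were called higher and 2 lower at 24 h (median 0.37), and 5 were higher and 6 lower at 8 h (median 0.12). Over all 23 measured inhibitors the median was 0.16 at 24 h and 0.04 at 8 h. SLA, an adaptor that dampens antigen receptor signaling, had a log2 change of 1.97 ± 0.07 at 8 h (limma adjusted p = 4.51e-12) and 2.09 ± 0.07 at 24 h (limma adjusted p = 6.53e-13). LAPTM5, a lysosomal protein that lowers surface antigen receptor, was at 1.31 ± 0.07 at 24 h (limma adjusted p = 1.76e-10). The inhibitory receptors LAIR1 and LILRB1 were at 1.56 ± 0.11 and 0.98 ± 0.12 at 24 h (limma adjusted p = 3.57e-09 and 3.38e-06).

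Relatives of the member kinases and of BLNK gave no called rise at 8 h, with 0 of 7 higher and 4 lower in limma (median -0.35, and 0 higher at an unadjusted p below 0.05), and at 24 h 1 was higher and 2 lower (median 0.03). Over all 10 measured relatives the median was -0.23 at 8 h and -0.04 at 24 h, and without the filter 3 were called lower at 8 h. ZAP70, the relative of SYK known from T cells, had a log2 change of -0.47 ± 0.09 at 8 h (limma adjusted p = 0.000585) and -0.34 ± 0.09 at 24 h (limma adjusted p = 0.00289). FYN, LCK and LCP2, the last a relative of BLNK, were at -0.44, -0.46 and -0.31 at 8 h (limma adjusted p = 0.00313, 0.0171 and 0.0147), and their 24 h values were between 0.02 and 0.07 and not called. With both LCP2 probe sets averaged and no filter, LCP2 was at -0.27 at 8 h and not called (limma adjusted p = 0.0614).

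Of the 7 immunoglobulin and related genes kept by the filter, 3 were higher and 2 lower at 24 h (median 0.10) and 2 higher and 3 lower at 8 h (median 0.08), and over all 9 measured the medians were 0.05 and -0.02. IGHM, the mu heavy chain that pairs with the surrogate light chain, was at 0.69 ± 0.07 at 24 h (limma adjusted p = 3.90e-07) and at 0.19 ± 0.07 at 8 h (limma adjusted p = 0.0494). IGHD was at 0.60 ± 0.13 at 24 h (limma adjusted p = 0.000709), and JCHAIN, the joining chain of secreted antibodies, fell by 1.47 ± 0.20 (limma adjusted p = 7.43e-06). JCHAIN's mean lay below the array medians already in untreated cells (5.32) and at 24 h (3.85). Probe sets of this list can share sequence with other immunoglobulin genes, which was not tested.

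Transcription factors known to act on pre-B cell receptor genes moved both ways, with 6 of 14 higher and 4 lower at 24 h (median 0.20) and 2 higher and 6 lower at 8 h (median -0.16). Over all 18 measured factors the median was 0.07 at 24 h and -0.13 at 8 h. ID2 and ID3, which both encode inhibitors of the E proteins that bind E-boxes, differed in direction. ID2 was at 2.27 ± 0.13 at 24 h (limma adjusted p = 3.60e-10) and ID3 fell by 1.74 ± 0.11 (limma adjusted p = 8.44e-10). FOXO1 was at 1.32 ± 0.08 at 24 h (limma adjusted p = 8.53e-10), and BCL6, a repressor that pre-B cell receptor signals induce, fell by 0.85 ± 0.13 (limma adjusted p = 4.17e-05).

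**Figure D4:**
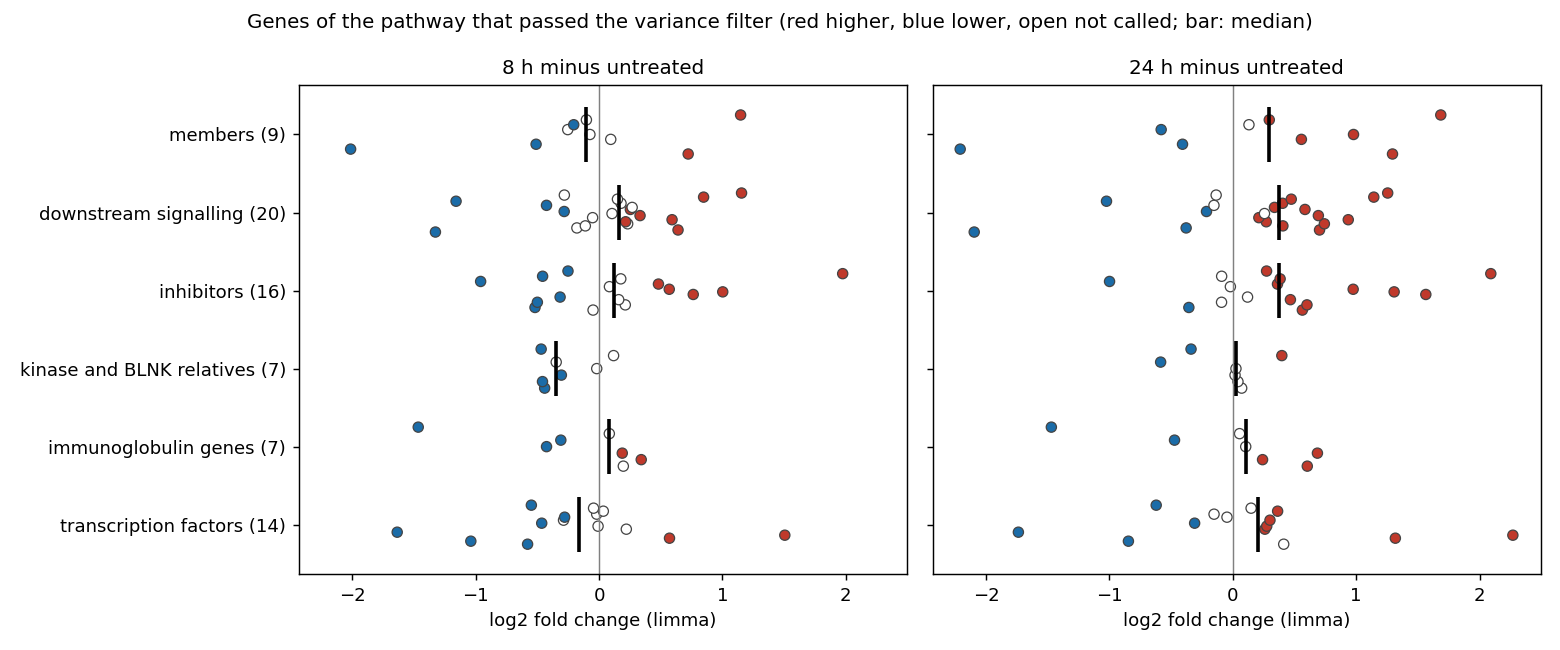
Log2 change from untreated cells (x axis) at 8 h (left) and 24 h (right) for each gene of the members and of 5 related lists that passed the variance filter (rows, number of genes in brackets). Red points were called higher, blue points lower and open points not called in limma, and black bars are medians of these filtered genes. At 24 h they stood at 0.37 for both downstream and inhibitor genes, where all measured genes of these lists had medians of 0.17 and 0.16.

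Markers were read to check the label of the cells. Of 10 B-cell precursor markers 8 were measured, and the mean level of 6 in untreated cells, 5 at 8 h and 5 at 24 h was above the array medians, PAX5, RAG1 and CD24 among them. MME stood at 4.33 at 24 h and 4.32 in untreated cells and CD34 at 5.68 and 5.86, below the medians. Of the 5 precursor markers kept by the filter, 1 was called higher and 3 lower at 24 h. CD24 was at 0.41 (limma adjusted p = 0.00148), and DNTT, the polymerase of early precursors, fell by 1.80 (limma adjusted p = 0.000128), RAG2 by 0.50 (limma adjusted p = 0.000347) and CD22 by 0.36 (limma adjusted p = 0.00206). DNTT's mean went from 6.29 in untreated cells to 4.48 at 24 h, below the array medians. The summed linear level of the precursor markers, in which bright probe sets weigh the most, ranged from 3643 to 4353 in untreated cells, from 3613 to 3824 at 8 h and from 4665 to 5002 at 24 h. For 12 T and NK cell markers the sum ranged from 1486 to 1647 in untreated cells, from 1122 to 1315 at 8 h and from 1389 to 1582 at 24 h, 3 of them being above the medians, LCK and ZAP70 included, while CD3E stood at 4.56 at 24 h and 4.57 in untreated cells. None of 11 myeloid markers was above the medians, with sums of 190 to 216 in untreated cells, 185 to 194 at 8 h and 195 to 221 at 24 h, and the 2 kept by the filter, ITGAM and LYZ, were at 0.41 and 0.44 at 24 h (limma adjusted p = 0.00182 and 0.0170). Of 8 erythroid and platelet markers 1, GP9, was above, with sums of 234 to 268 in untreated cells, 283 to 315 at 8 h and 311 to 370 at 24 h. Of the 5 kept by the filter, 1 was called higher and 1 lower at 24 h (median log2 change -0.15). GP9 was the higher one, at 1.33 (limma adjusted p = 1.73e-09), and ITGA2B the lower, at -0.32 (limma adjusted p = 0.0115). The part of these shifts in the members' changes was not tested.

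The genes whose log2 values ran most like a member's over the 14 arrays were taken by Pearson correlation, as a description only, since the arrays fall into 3 groups and share runs. BLK ran with TOGARAM1 (r = 0.986) and with TCL6 (r = 0.984), a gene first described near a leukemia breakpoint cluster. CD79B ran with VPS28 (r = 0.978) and S1PR4 (r = 0.972), VPREB3 with ZMYND11 (r = 0.976) and PLEKHO2 (r = 0.974), and BLNK with IER2 (r = 0.976) and SEC63 (r = 0.975). IGLL1 ran with NCKIPSD (r = 0.975) and PEMT (r = 0.972), and SYK with CORO1B (r = 0.973) and SATB1 (r = 0.966). CD79A ran with GM2A (r = 0.962) and SH3BGRL3 (r = 0.961). The values were lower for BTK with CLEC2D (r = 0.959) and CEBPB (r = 0.945), and for LYN with PLCL2 (r = 0.941) and GAREM1 (r = 0.914).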

How the data were processed

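Total RNA of RS4;11 cells was hybridized to 14 arrays (4 untreated, 5 at 8 h, 5 at 24 h). The authors background-corrected and normalized the arrays with RMA of the affy package (version not given in the sources used here), left out 1 untreated array, and deposited log2 values for 22277 probe sets. Signals on arrays have no counts behind them, so the number of arrays limits the precision.

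Groups, replicate numbers and runs came from the labels. The 19070 probe sets with a single gene were kept (1043 had several, 2164 none), and the 9535 above the 0.5 quantile of the interquartile range were averaged per gene. A limma model (version 3.58.1, R 4.3.3) without a block, over all arrays, with Benjamini-Hochberg adjustment, gave the 3 comparisons. It was also tried, without the variance filter, on simulated data in which the arrays of a run were independent, unlike the arrays here. Deviations from the group means correlated with r from 0.376 to 0.640 in the 13 same-run pairs. They did so with r of 0.28 in the 2 pairs that shared a title number but not a run. Of the 14 arrays, 9 had their best match in their own run. Runs 1 and 2 share day 1, so these values cannot separate run from day, and the pairing rests on the tags in the labels.

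Named genes are all members, from each list up to 4 called genes, smallest adjusted p first, and the 2 nearest genes of a called member. Members and lists were chosen with earlier results of these data known. Alternatives were other filters, normalizations, blocks, weights and subsets of arrays, and each array left out in turn. The last was repeated for BTK without the filter, as chosen after seeing the data. Motifs were searched in RefSeq promoter windows of 7 members, and the chromosome that carries BLK and LYN was skipped.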

Additional observations from a re-analysis of the deposited data

Results flagged for a closer look

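In 3 of 30 groups of member values, 1 array stood apart by Dixon's ratio, which flags about 1 group in 20 by chance. They were VPREB1 in the 8 h array of run 5 (12.81, the highest of 5), CD79B in the 24 h array of run 3 (10.18, the lowest of 5) and BLK in the 24 h array of run 5 (9.71, the highest of 5).

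The change at 24 h differed from that at 8 h for 8 members, tested as the difference between the 24 h and 8 h arrays in limma. Of these, 7 came from the filtered fit, in which 47.9% of the 6763 genes tested were called in either direction. VPREB1 came from the fit over all 11963 genes, of which 28.3% were called. The differences in log2 change were 1.05 for CD79B (adjusted p = 2.94e-07), 0.57 for BLK (adjusted p = 0.000253), 0.54 for VPREB3 (adjusted p = 0.00445), 0.46 for CD79A (adjusted p = 0.00137), 0.40 for SYK (adjusted p = 0.000231), 0.34 for LYN (adjusted p = 0.000813), 0.28 for VPREB1 (adjusted p = 0.000334) and -0.33 for IGLL1 (adjusted p = 0.0101).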

How the results depend on the processing

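Of 891 member values recomputed under 31 settings, 851 kept their side of the threshold, 22 lost the call, 18 gained it and 0 turned sign while called. The 851 include 3 that had the other sign without a call, CD79A at 8 h with array weights (-0.02) and within days 2 to 4 (-0.03) and CD79B at 8 h within days 2 to 4 (0.02). A variance filter at the 0.75 quantile tested 3547 genes and, of the members, kept only VPREB3, CD79A, CD79B, BLNK and BLK. Of these, 3 were called at 8 h, 5 at 24 h and 4 between 24 h and 8 h. Each of these members kept its side of the threshold in every comparison, so the lower counts come from members the filter removed. Of the 3547 genes, 2854 were called at 24 h. At 8 h array weights called 4121 genes and an adjusted p below 0.01 called 1525, where the fit reported called 2335. Leaving out each array in turn, the members called were 3 to 5 at 8 h, 7 to 9 at 24 h and 7 to 8 between 24 h and 8 h, and the genes called were 1824 to 2376, 4031 to 4366 and 2925 to 3317. The 3 members at 8 h came without the 8 h array of run 5 or the untreated array of run 2, 3 or 4, where LYN lost its call and the filter removed BTK. The run as a block brought VPREB1 (-0.15, adjusted p = 0.0367) and IGLL1 (-0.27, adjusted p = 0.00207) past the threshold at 8 h and changed no other call of a member. It called 3141 of the 6763 genes at 8 h, 4805 at 24 h and 4047 between 24 h and 8 h, where the fit without a block called 2335, 4289 and 3242. The day or the title number as a block brought LYN past the threshold at 24 h (0.12 and 0.14, adjusted p = 0.0453 and 0.0385). Shifting every array to the same median ended the 24 h call of VPREB1 (0.11, adjusted p = 0.125). BLNK read below the array medians after treatment, as did the means of BANK1, DNTT and JCHAIN. How far such signals can fall there was not tested.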
